A study of Rattus norvegicus with 4 samples.

Results

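Mitosis and cyclin genes are the genes that drive the cell division cycle and carry out chromosome segregation. The set described here holds 50 genes, chosen by name: cyclins, cyclin-dependent kinases (CDKs) and their inhibitors, RB and E2F factors, mitotic kinases, checkpoint and kinetochore proteins, spindle motors and condensin. They were measured in NR8383 cells, a macrophage line established from rat lung lavage, after 20 passages and 4 h with the carbon black Printex90 at 0.9 cm2/cm2. The labels carry the abbreviation ALI for this exposure. Total RNA of 4 biological replicates was hybridised to 1-colour Agilent rat arrays, 1 array each. All 4 arrays carried exposed cells of this 1 line, and the untreated cells of the design were not analysed here. No value below is therefore a change with the particles, and precision is limited by there being 4 arrays.

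Of the 50 genes, 45 had a probe among the 16581 genes that could be named on the array, and these 45 genes were read by 66 probes in 131 spots. For Top2a, E2f2, Cdc25c, Cenpe and Ncapd2 no probe accession matched, so they have no level here; the promoter counts below include those with a promoter entry. A gene's level is the log2 intensity of its brightest probe minus the 75th percentile of the array, so that a level of 0 is that percentile. Probes differ in brightness for the same amount of RNA, so the level of one gene is not set against that of another. A gene was called detected on an array when a spot of any of its probes was flagged well above background by the scanner software. Of 10 macrophage markers, 8 were detected on all 4 arrays, while Marco was detected on 1 and Adgre1 on 2. Of the fixed markers of other cell types, none of 5 for lung epithelium and none of 2 for B cells were detected on all arrays. The counts were 1 of 4 for T cells (Cd3d), 1 of 4 for fibroblasts (Dcn) and 3 of 4 for endothelium (Pecam1, Cdh5 and Vwf).

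In the division cycle, D-type cyclins with CDK4 or CDK6 phosphorylate the retinoblastoma protein RB1 and release E2F factors, which turn on the genes of DNA replication. Cyclin E and cyclin A with CDK2 carry cells through S phase, and cyclin B with CDK1 drives entry into mitosis. The spindle checkpoint then holds back CDC20 and the anaphase-promoting complex until every kinetochore is attached. Alveolar macrophages can renew themselves by division in the lung, and a macrophage line in culture has to divide continuously.

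Genes of late cell cycle phases are known to be controlled through 2 short promoter elements, the cell cycle genes homology region (CHR), bound by MuvB complexes, and the CCAAT box, bound by NF-Y. In the RefSeq promoter table of the GRCr8 assembly, 40 of the 50 genes had an entry. The letters TTTGAA, searched as the CHR on both strands, were found within 250 bases upstream of the start in 16 of the 40 (40.0%), against 16.03% of all 27457 promoters of that length. CCAAT was found on either strand in 28 of the 40 (70.0%), against 34.29% of all. Both were found in 15 of the 40 (37.5%), against 5.758%. Of 2 further forms that E2F sites can take, TTTCCCGC and TTTGGCGC, neither was found in any of the 40, against 0.8559% and 0.4261% of all promoters. At shares this low a set of 40 would hold few or no matches, and other forms of the site were not searched. A match describes letters in this window and is not evidence of binding.

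The promoters of the 4 detected genes with both elements and the most matches are shown to make this arrangement visible. Each runs 5′ to 3′ on the gene's strand and ends at the base before the annotated start. Capitals mark TTTGAA and CCAAT or their reverse complements (TTCAAA and ATTGG).
Mki67 (GRCr8, chr1:199952594-199952843, minus strand): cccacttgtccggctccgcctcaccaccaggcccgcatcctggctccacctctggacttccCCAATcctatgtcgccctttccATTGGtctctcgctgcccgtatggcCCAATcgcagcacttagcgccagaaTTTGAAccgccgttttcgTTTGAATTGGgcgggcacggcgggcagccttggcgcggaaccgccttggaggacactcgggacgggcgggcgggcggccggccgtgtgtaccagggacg
Ccnb2 (GRCr8, chr8:79981659-79981908, minus strand): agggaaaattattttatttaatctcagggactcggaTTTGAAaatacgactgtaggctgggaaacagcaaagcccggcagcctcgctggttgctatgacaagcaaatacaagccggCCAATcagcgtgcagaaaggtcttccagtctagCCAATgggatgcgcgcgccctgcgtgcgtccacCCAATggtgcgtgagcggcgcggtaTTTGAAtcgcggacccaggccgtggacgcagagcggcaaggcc
Cdk1 (GRCr8, chr20:19265043-19265292, plus strand): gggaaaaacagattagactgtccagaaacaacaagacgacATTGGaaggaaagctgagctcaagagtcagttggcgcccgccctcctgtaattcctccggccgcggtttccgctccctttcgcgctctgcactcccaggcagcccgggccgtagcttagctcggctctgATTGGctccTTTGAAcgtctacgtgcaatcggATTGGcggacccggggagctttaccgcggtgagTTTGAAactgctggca
Pttg1 (GRCr8, chr10:28406327-28406576, minus strand): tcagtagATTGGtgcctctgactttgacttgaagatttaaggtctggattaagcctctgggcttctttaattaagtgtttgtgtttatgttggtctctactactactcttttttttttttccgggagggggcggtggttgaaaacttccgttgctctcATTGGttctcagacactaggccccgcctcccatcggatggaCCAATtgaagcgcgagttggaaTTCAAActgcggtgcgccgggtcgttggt
In Ccnb2 the 3 CCAAT boxes begin 134, 101 and 68 bases before the start, all in the same orientation, and TTTGAA begins at 214 and 43. In Cdk1 the nearest TTTGAA begins 16 bases before the start and the nearest CCAAT box, in reverse orientation, 49 bases before it. Pttg1 has its TTTGAA on the opposite strand, 29 bases before the start, after a CCAAT box at 51. Mki67 holds 2 TTTGAA and 4 CCAAT matches, and 1 pair of them overlaps.

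Most of the set gave signal above background. Of the 45 genes, 40 passed on all 4 arrays (88.89%), against a share of 50.8% over all named genes. A further pair, Rb1 and E2f1, were measured on only 3 arrays, because their single spot on replicate 4 carried an outlier flag, and both were detected on those 3. The remaining genes were Cenpf, detected on 2 arrays, and Cdk6 and Cdkn2a, detected on none. In 7 of the 11 role groups every gene with a probe was detected on all arrays. The plot of detection by list shows this for each group beside the further cell cycle genes.

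**Figure D1:**
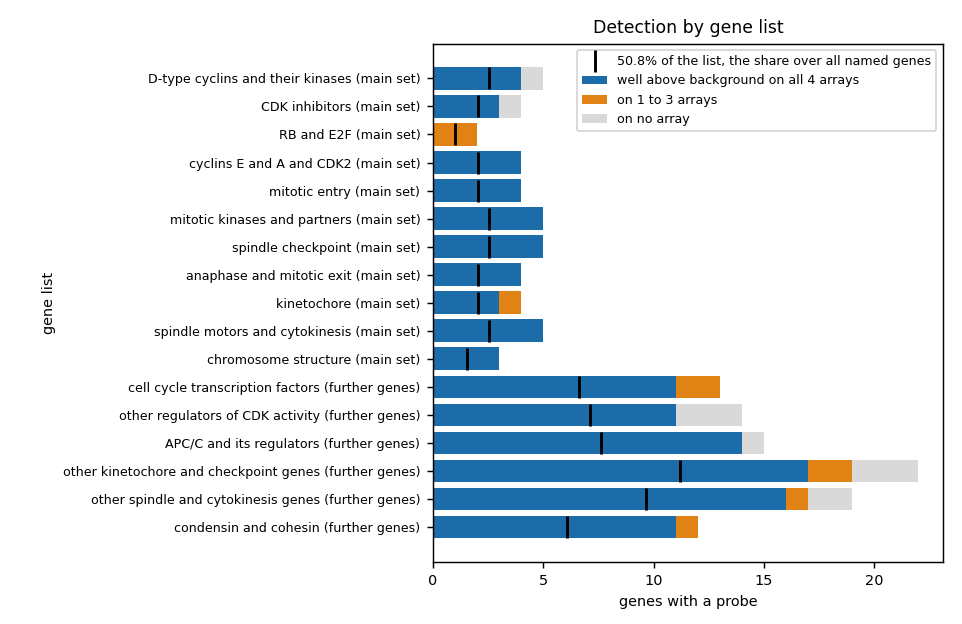
Number of genes with a probe in each list (x axis) that were well above background on all 4 arrays (blue), on 1 to 3 arrays (orange) or on none (grey), with a black mark at 50.8% of the list, the share over all named genes. The blue bar passes the mark in every list other than RB and E2F, whose 2 genes were measured on 3 arrays.

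**Figure D2:**
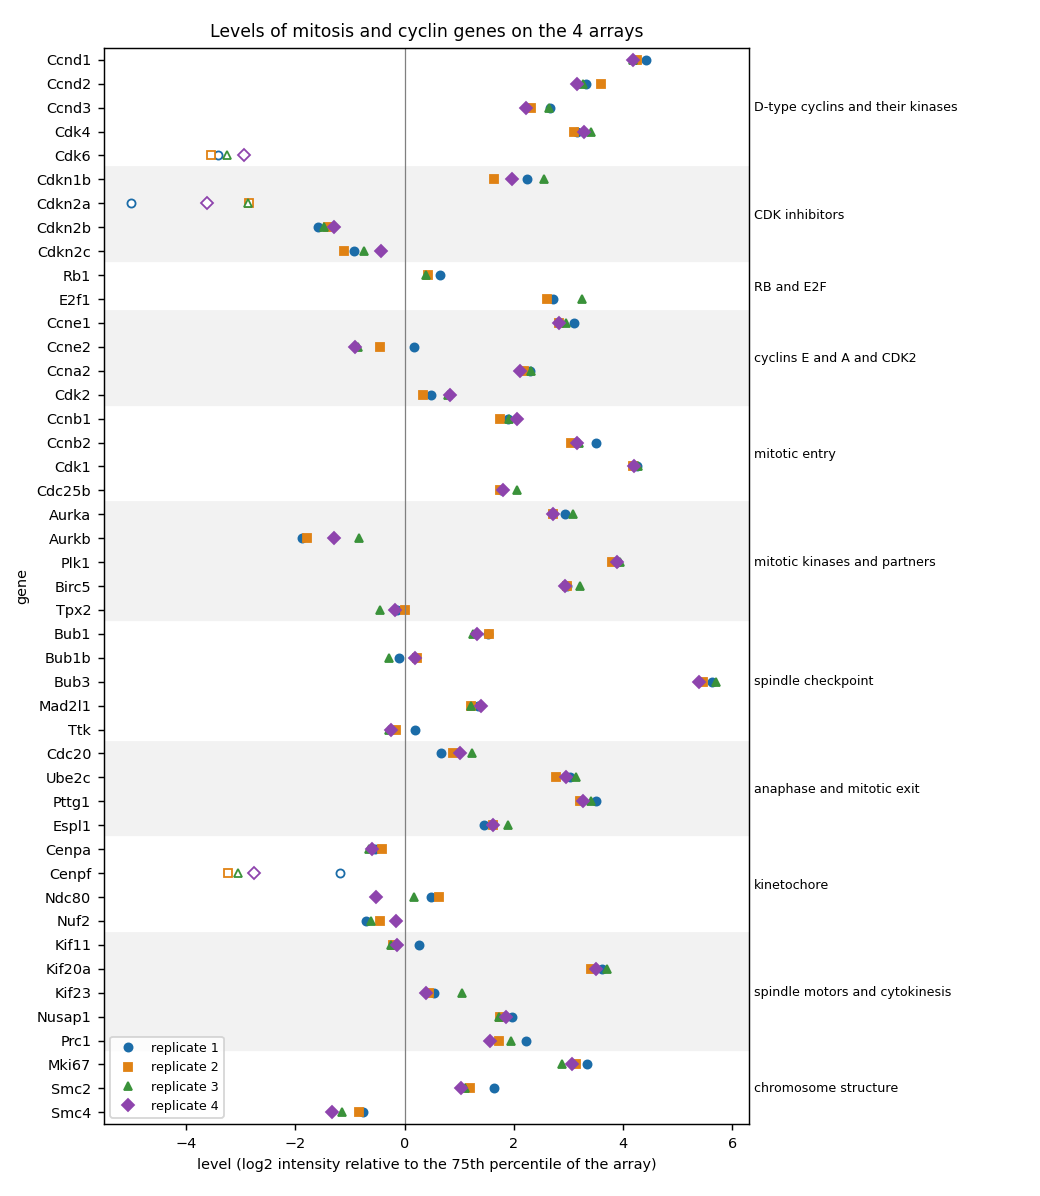
Level of each of the 45 genes on the 4 arrays (x axis, log2 intensity relative to the array's 75th percentile); each point is 1 replicate, and open symbols mark genes not detected on every array that measured them. The 4 replicates of most genes lie close together, with wider rows for Ccne2, Aurkb and Ndc80 and open rows for Cdk6, Cdkn2a and Cenpf.

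Among the D-type cyclins and their kinases, the 3 cyclin genes and Cdk4 were detected on all arrays and Cdk6 on none. Ccnd1, the cyclin gene induced by growth signals, had levels of 4.41, 4.25, 4.18 and 4.18 on replicates 1 to 4, a mean of 4.25 ± 0.11 (SD, n = 4). Replicate 1 was highest and the others read 4.18 to 4.25. The other genes of the group had levels of 3.33 ± 0.18 for Ccnd2, 2.47 ± 0.23 for Ccnd3 and 3.24 ± 0.14 for Cdk4, the kinase partner of these cyclins (SD, n = 4 for all). Cdk6, which encodes the other D-cyclin kinase, had levels of -3.42, -3.54, -3.24 and -2.94, none of them well above background. Its 2 other probes, designed on predicted transcripts, had means of -4.87 and -5.02 and were not detected on any array either.

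CDK inhibitors were detected in 3 of 4 cases. Cdkn1b encodes p27, an inhibitor of cyclin E-CDK2, and had levels of 2.25, 1.64, 2.56 and 1.96 (mean 2.10 ± 0.40, SD, n = 4). Replicate 3 was highest and replicate 2 lowest, and the spot on replicate 3 lay in an area of that array that was bright for unnamed probes too. A second probe of Cdkn1b, outside such areas, gave 1.85, 1.83, 1.81 and 1.72 (1.80 ± 0.05, SD, n = 4) and so did not repeat that pattern.

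The INK4 genes encode inhibitors of CDK4 and CDK6 and differed in detection. Cdkn2c, which encodes p18, was detected on all arrays, with levels of -0.92, -1.10, -0.74 and -0.43 that were highest on replicate 4. Cdkn2b, the gene of p15, was detected on all arrays by 1 of 3 probes, at -1.59, -1.40, -1.47 and -1.30. Its 2 other probes, on predicted transcripts, were detected on 2 arrays and on none. Cdkn2a, the locus of p16 and of the p53 activator ARF, was read by 1 probe, at -5.00, -2.85, -2.87 and -3.61. This probe was not well above background on any array.

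RB1 restrains the E2F factors until CDKs phosphorylate it. Rb1 had levels of 0.64, 0.43 and 0.39 on replicates 1 to 3 (0.49 ± 0.14, SD, n = 3). E2f1, an activating E2F gene, had levels of 2.71, 2.61 and 3.24 on the same arrays (2.85 ± 0.34, SD, n = 3). Rb1 was highest on replicate 1 and E2f1 on replicate 3.

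All 4 genes of cyclins E and A and of CDK2 were detected on every array, and the 2 cyclin E genes differed in spread. Ccne1 had levels of 3.10, 2.82, 2.95 and 2.83 (2.92 ± 0.13, SD, n = 4). Ccne2 had levels of 0.18, -0.45, -0.86 and -0.90 (-0.51 ± 0.50, SD, n = 4), so that its highest array, replicate 1, stood 2.115-fold above its lowest, replicate 4. For Ccne1 the same ratio between highest and lowest array was 1.215. Each of these genes was read by 1 spot per array.

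Ccna2 encodes cyclin A2, which acts in S phase and early mitosis. Its main probe gave 2.29, 2.19, 2.32 and 2.11 (2.23 ± 0.10, SD, n = 4), 1.156-fold between replicate 3, the highest, and replicate 4, the lowest. A second probe was detected on 3 arrays, with a mean of -2.39. Cdk2 had levels of 0.49, 0.33, 0.80 and 0.84, with replicates 3 and 4 above replicates 1 and 2.

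Of the mitotic entry genes, all 4 with a probe were detected, with a median SD of 0.14. Ccnb1, the gene of cyclin B1, had levels of 1.90, 1.74, 1.91 and 2.06 (1.90 ± 0.13, SD, n = 4). Cdk1, its kinase partner, had levels of 4.25, 4.18, 4.28 and 4.19 (4.22 ± 0.05, SD, n = 4), and its highest and lowest arrays differed by a factor of 1.071, the lowest of the 40 detected genes. Ccnb2 was highest on replicate 1, with a mean of 3.22 ± 0.20, and Cdc25b, a phosphatase gene whose product activates CDK1, was highest on replicate 3, with a mean of 1.84 ± 0.14 (SD, n = 4 for both).

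All 5 mitotic kinases and partners were detected. Aurka, the gene of the centrosome kinase Aurora A, had levels of 2.93, 2.71, 3.09 and 2.71 (2.86 ± 0.18, SD, n = 4). Aurkb, the gene of the chromosomal passenger kinase Aurora B, had levels of -1.88, -1.78, -0.84 and -1.30 (-1.45 ± 0.48, SD, n = 4). Replicate 3 stood 2.05-fold above replicate 1, and Aurkb was read by 1 spot per array. Birc5, the gene of survivin, a subunit of the same passenger complex, was also highest on replicate 3, at 3.21 against 2.94 to 2.98 on the others. Of all detected genes, 31.51% were highest on replicate 3. Tpx2, whose product activates Aurora A on the spindle, was lowest on replicate 3, with a mean of -0.19 ± 0.18 (SD, n = 4), and Plk1, the gene of the polo-like kinase, had a mean of 3.88 ± 0.06 (SD, n = 4).

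Spindle checkpoint genes were likewise detected in 5 of 5 cases. Bub1, a checkpoint kinase gene, had levels of 1.53, 1.54, 1.25 and 1.32 (1.41 ± 0.15, SD, n = 4), with replicates 1 and 2 above the others. Bub1b, which encodes BUBR1, a subunit of the complex that inhibits CDC20, had levels of -0.10, 0.22, -0.29 and 0.19. A weaker probe of Bub1b gave -2.73, -1.82, -3.08 and -1.91, with the same arrays high and low. The means were 5.54 ± 0.15 for Bub3 and -0.12 ± 0.22 for Ttk, the gene of the kinase MPS1 (SD, n = 4 for both). Mad2l1, whose product binds and inhibits CDC20, had levels of 1.34, 1.22, 1.21 and 1.40 (1.29 ± 0.09, SD, n = 4), with replicates 1 and 4 above the others. These came from a probe of its curated transcript, while of 2 probes on predicted transcripts 1 was detected on all arrays and 1 on none.

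Genes of anaphase and mitotic exit were all detected. Cdc20, the activator of the anaphase-promoting complex, had levels of 0.66, 0.88, 1.23 and 1.02 (0.95 ± 0.24, SD, n = 4), highest on replicate 3 and lowest on replicate 1. Ube2c, a ubiquitin-conjugating enzyme of that complex, had a mean of 2.97 ± 0.15, and Pttg1, the gene of the separase inhibitor securin, one of 3.35 ± 0.14 (SD, n = 4 for both). Espl1, the gene of separase itself, had levels of 1.46, 1.62, 1.89 and 1.62 by its brighter probe. The single spot behind these levels lay in a bright area of replicate 4. The other probe was detected on 1 array and gave -3.66, -5.09, -0.35 and -5.74, and its spot on replicate 3 lay in a bright area.

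The 3 kinetochore genes detected on all arrays had a median SD of 0.24. Cenpa encodes the histone variant that marks centromeres and had levels of -0.54, -0.41, -0.65 and -0.59 (-0.55 ± 0.10, SD, n = 4). Ndc80, the gene of a microtubule-binding subunit of the outer kinetochore, had levels of 0.49, 0.63, 0.18 and -0.52 (0.19 ± 0.51, SD, n = 4), the largest SD of the 40 detected genes. Replicate 4 was lowest on this probe and also on a second detected one, which gave -1.48, -1.62, -1.90 and -2.06. Nuf2, which encodes the partner of NDC80, was highest on replicate 4 instead, with a mean of -0.48 ± 0.24 (SD, n = 4). Cenpf, the gene of a large kinetochore protein of G2 and mitosis, was read by 1 probe, at -1.18, -3.23, -3.04 and -2.76. It was well above background on replicates 1 and 4 only.

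The 5 genes of spindle motors and cytokinesis were detected on all arrays. Kif11, the gene of the motor that separates the spindle poles, had levels of 0.26, -0.22, -0.25 and -0.14 (-0.09 ± 0.24, SD, n = 4). Replicate 1 stood above the other arrays, which lay close together. Kif23, a motor gene of the central spindle, had levels of 0.54, 0.44, 1.05 and 0.40, and its single spot on replicate 3 lay in a bright area of that array. The means were 3.56 ± 0.12 for Kif20a, 1.82 ± 0.11 for Nusap1 and 1.87 ± 0.29 for Prc1, whose product bundles microtubules in the midzone (SD, n = 4 for all).

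In the chromosome structure group, all 3 genes with a probe were detected and all 3 were highest on replicate 1. Over all detected genes, 30.96% were highest on that array. Mki67, whose product Ki-67 coats mitotic chromosomes, had levels of 3.33, 3.13, 2.89 and 3.07 (3.11 ± 0.18, SD, n = 4). Smc2 and Smc4, which encode the ATPase subunits of condensin, had means of 1.24 ± 0.27 and -1.01 ± 0.26 (SD, n = 4 for both). Smc2 stood at 1.63 on replicate 1 against 1.03 to 1.19 on the others. Smc4 read -0.76 on replicate 1 and -0.83 on replicate 2.

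The spread between replicates was small for most of the set. The median SD over the 40 detected genes was 0.181, or 1.134-fold, against 0.165, or 1.121-fold, over all 8424 detected genes. An SD over 0.4 was found for 3 of the 40 (7.5%), against 5.544% of all detected genes, and an SD under 0.1 for 4 of the 40 (10.0%), against 19.44%.

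No array held the set as a whole far above or below its usual level. After the median distance of all detected genes was subtracted, the median distance of the 40 genes from their own means was 0.023, -0.056, 0.011 and -0.028 on replicates 1 to 4. Of the 40 genes, 13 were highest on replicate 1 (32.5%), 6 on replicate 2 (15.0%), 15 on replicate 3 (37.5%) and 6 on replicate 4 (15.0%). Over all detected genes these shares were 30.96%, 17.57%, 31.51% and 19.97%.

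Single genes lay further apart, and replicates 1 and 3 differed most often. A difference of 0.3 was chosen after the data were seen to describe this. Differences were taken after the median distance of all detected genes on each array was subtracted, as above. Between these 2 arrays, 40.0% of the 40 genes differed by more than 0.3 in either direction, against 29.88% of all detected genes, and in the other 5 pairs of arrays the share was 22.5% to 37.5%, against 24.38% to 28.34% of all detected genes. The share also lay above that of all genes between replicates 2 and 3 (37.5% against 25.38%) and 1 and 4 (37.5% against 28.16%). It lay near that of all genes between replicates 1 and 2 (27.5% against 24.38%), 2 and 4 (22.5% against 24.57%) and 3 and 4 (27.5% against 28.34%). Between replicates 1 and 3, the 9 genes higher on replicate 1 were Ccnb2, Ccne2, Kif11, Mki67, Ndc80, Smc2, Smc4, Tpx2 and Ttk. Aurkb, Cdc20, Cdc25b, Cdk2, Cdkn1b, Espl1 and Kif23 were the 7 higher on replicate 3, and of these the spots of Cdkn1b and Kif23 on replicate 3 lay in bright areas. The spots of the other 5 on replicate 3 lay outside such areas, and so did those of the 9 genes other than 1 of the 10 spots of Mki67. The median difference over the 40 genes was 0.007, with genes higher on either array.

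**Figure D3:**
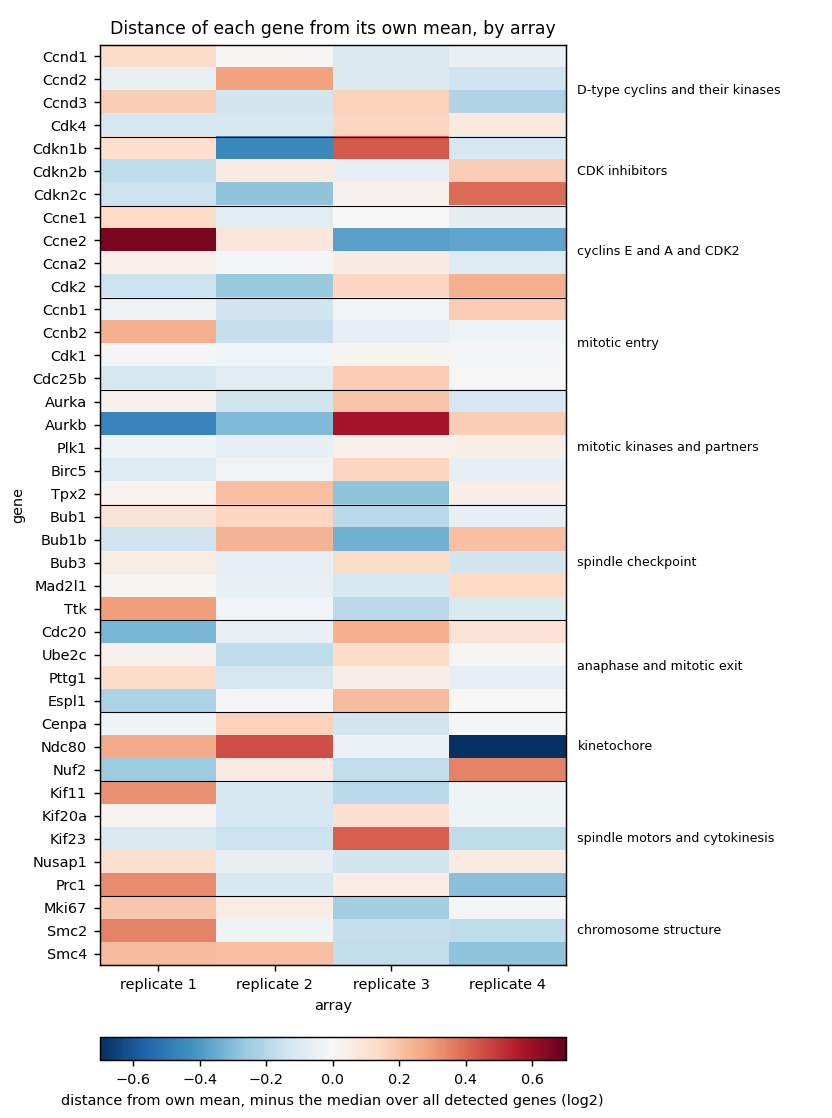
Distance of each of the 40 detected genes (y axis, by role) from its own mean on each array (x axis), minus the median distance of all detected genes on that array; red is higher and blue is lower, in log2 units. No column is uniformly red or blue; Ccne2 reaches 0.66 on replicate 1, Aurkb 0.58 on replicate 3 and Ndc80 -0.69 on replicate 4.

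Genes read by several probes gave a check of these patterns within the arrays. Among the 45 genes, 15 had several probes, and 14 of these were detected on all arrays. For 5 of the 14, namely Ccna2, Cdkn2b, Espl1, Mad2l1 and Ndc80, at least one probe was not detected on all arrays, a share near that of all such named genes (969 of 2400). In 11 genes at least 2 probes were detected on all arrays, and in 6 of the 11 (54.5%) these probes were highest on the same array, against 32.3% of 1575 named genes of this kind. The 6 were Bub1b, Ccnb2, Ccnd1, Cenpa, Mki67 and Ube2c. For Ube2c that array was replicate 3, where the spot of the second probe lay in a bright area. The second probe of Ccnd1 was nearly flat, at 3.36, 3.30, 3.32 and 3.33 on replicates 1 to 4 (SD 0.03, n = 4).

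The 4 probes of Mki67 were all highest on replicate 1, with means of 3.11, 2.58, 1.42 and 0.10. The faintest of them was lowest on replicate 4, where it read -0.62 against 0.16 to 0.52 elsewhere, and its spot on replicate 2 lay in a bright area. For Prc1 the probes disagreed: 1 gave 2.23, 1.73, 1.95 and 1.56 and the other 0.77, 0.54, 0.81 and 1.14, so that replicate 4 was lowest on the first and highest on the second. Aurka also differed between its probes, since a probe on a predicted transcript was highest on replicate 2 (-0.09, 0.37, -0.34 and -0.14).

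**Figure D4:**
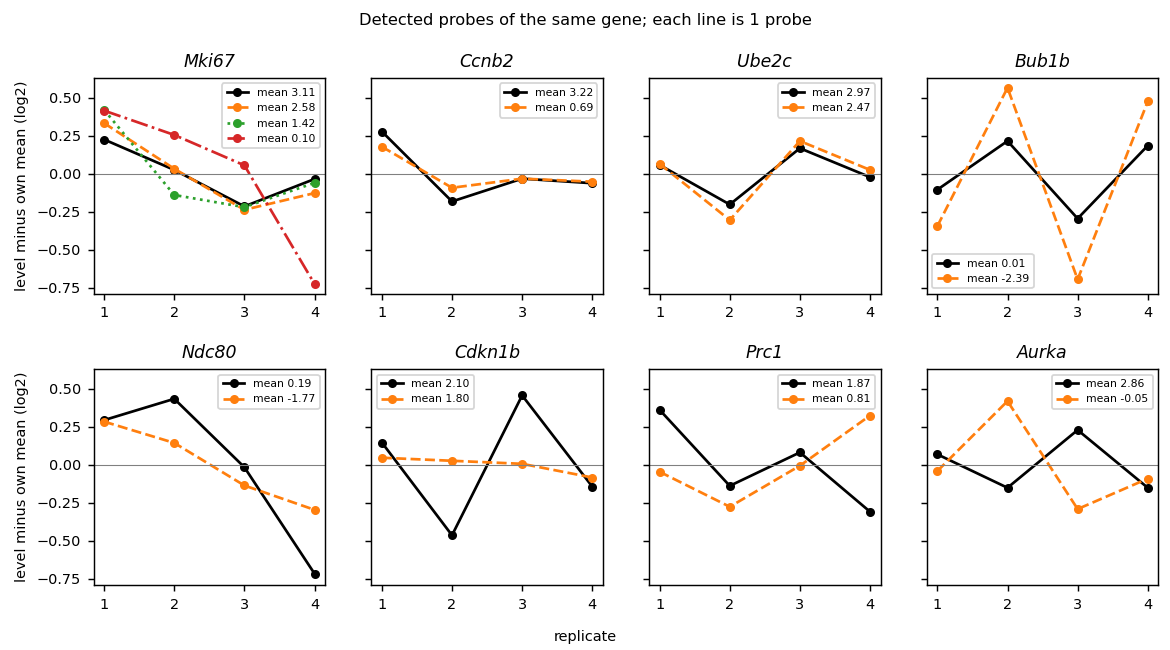
Level minus the probe's own mean (y axis, log2) on replicates 1 to 4 (x axis) for the probes detected on all arrays of 8 genes; each line joins the values of 1 probe, whose mean level is in the legend, and the replicates have no order. In the upper row the probes of a gene share their highest array, while in the lower row they do not. The other genes with several such probes are not drawn: Ccnd1 and Cenpa, whose probes share their highest array, and Mad2l1, whose probes do not.

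A subset of 6 genes had a probe printed 10 times on each array, which shows how far a single spot can be trusted: Bub3, Ccnd1, Cdk1, Mki67, Plk1 and Pttg1. Their spots differed within an array by a residual SD of 0.057 for Ccnd1 to 0.183 for Mki67, after array and spot position were fitted. Over all 1350 probes with at least 3 usable spots on each array the median of this SD was 0.114. For most genes of the set the probe that gave the level was printed once per array, so no such value can be had.

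A moderated F test with limma asked whether arrays differed beyond that noise, with Benjamini-Hochberg adjustment over the 1350 probes. It called 5 of the 6 probes, against 83.3% of all probes tested, so the count for these genes is near the background. The spots are not biological replicates, and these p-values say nothing about the exposure. Ccnd1 had the smallest p (adjusted p = 1.7e-07), by a factor of 1.175 between its highest array, replicate 1, and its lowest. Pttg1 (adjusted p = 4.1e-05, 1.233-fold) and Mki67 (adjusted p = 0.00019, 1.351-fold) were highest on replicate 1 too. Bub3 (adjusted p = 0.00021, 1.247-fold) and Plk1 (adjusted p = 0.013, 1.104-fold) were highest on replicate 3.

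For Cdk1 the test found no difference beyond spot noise (adjusted p = 0.41, 1.071-fold). Of its 10 spots, 3 lay in bright areas of replicate 2 and 1 in those of replicate 4, and its spot SD was 0.24 on replicate 2 against 0.08 to 0.12 on the others. Over the alternatives its adjusted p ran from 5.5e-13, with the array median, to 0.83, with quantile normalization. With the spots of bright areas left out on all arrays, Cdk1 passed the test (adjusted p = 0.04), at 4.26, 4.11, 4.30 and 4.22. It also passed with flagged spots kept (adjusted p = 0.043) and with normexp background correction (adjusted p = 0.00048). Cdk1 did not pass when any single replicate was left out (adjusted p = 0.11 to 0.64). The call for Plk1 was lost without replicate 2 (adjusted p = 0.36), without replicate 3 (adjusted p = 0.054) and with flagged spots kept (adjusted p = 0.12), and that for Mki67 without replicate 1 (adjusted p = 0.052). Bub3 lost its call under quantile normalization (adjusted p = 0.094). Its spots on replicate 4 had an SD of 0.24, against 0.08 to 0.10 on the other arrays. Of the 10 spots of Bub3, 2 lay in bright areas of replicate 2 and 1 in those of replicate 4. Ccnd1 had 1 such spot on replicate 2 and Pttg1 had 1 on replicate 3. With bright areas left out the calls stayed for Bub3 (adjusted p = 0.0021), Ccnd1 (adjusted p = 3.9e-07) and Pttg1 (adjusted p = 6.1e-05).

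**Figure D5:**
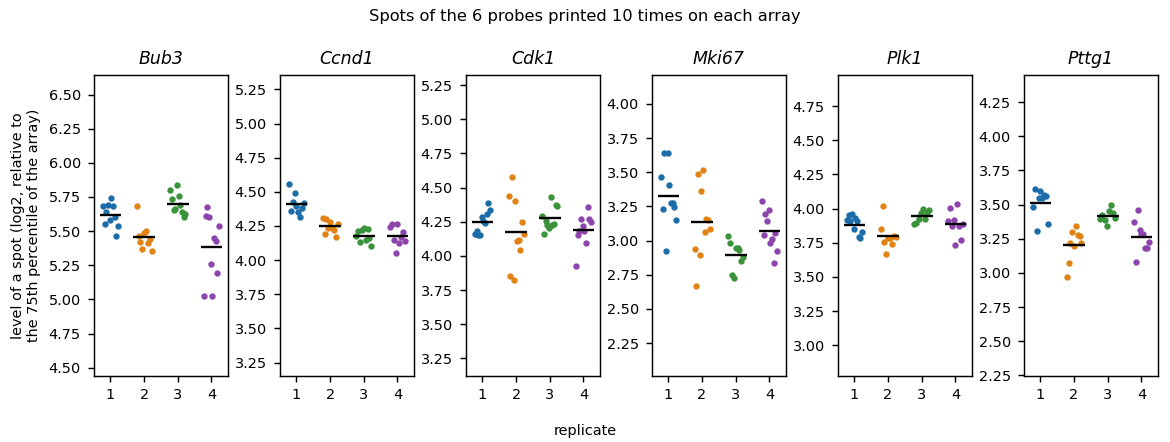
Level of each usable spot (y axis, log2 relative to the array's 75th percentile) of the 6 probes printed 10 times, by replicate (x axis); points are spots, black lines are array means, and each panel spans the same height. Spots of Ccnd1 on replicate 1 lie above those of the other arrays, while the spots of Cdk1 overlap on all 4 arrays.

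The wider cell cycle machinery was described by 6 lists of 112 further genes. A probe was found for 95, and 80 of these passed on every array (84.21%), against the same background of 50.8%. Their median SD was 0.163. Transcription factors of the cycle were detected in 11 of 13 cases and the anaphase-promoting complex with its regulators in 14 of 15. Condensin and cohesin genes were detected in 11 of 12 cases, other spindle and cytokinesis genes in 16 of 19, other regulators of CDK activity in 11 of 14, and other kinetochore and checkpoint genes in 17 of 22.

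Detected on no array were Skp2, which encodes the ubiquitin ligase subunit that targets p27, and Fbxo5, the gene of the anaphase-promoting complex inhibitor EMI1. The same held for Cdkn1c, the gene of the CDK inhibitor p57, for Ccna1, the germ-line cyclin A gene, and for Ska3, Cenpk, Sgo2, Hmmr and Cit. Rbl1, E2f7, Cenpc, Cenpi, Kif18a and Pds5a were detected on 1 to 3 arrays. Of the detected further genes, Rad21, Wee1, Mad2l2, Dsn1 and Stag2 had the largest SDs, and the probe behind the level of Wee1 was itself detected on 2 arrays. Mad2l2, a HORMA-domain gene related to Mad2l1, had levels of 1.20, -0.01, 1.33 and 0.87, lowest on replicate 2. Rad21, the gene of the cohesin subunit that separase cuts, had levels of 1.54, 1.64, 3.36 and 1.46, and its single spot on replicate 3 lay in a bright area of that array.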

How the data were processed

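Total RNA of 4 cultures was measured on 4 one-colour Agilent arrays, and the deposited files hold linear intensities for each spot. The submitters' processing notes name Agilent Feature Extraction 11.0.1.1. The processed signal had its background subtracted by that software per the file headers, and arrays were not normalized to each other. Probe accessions, without version, were matched to the RefSeq gene table of GRCr8; the array grid is on rn4 per the file headers, so no probe coordinates are given, and promoter coordinates are those of GRCr8.

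Non-control spots flagged as non-uniform or population outliers were left out (750 to 1551 per array). Log2 signals were averaged per probe, and the 75th percentile over probes (an intensity of 83.77 to 127.1) was subtracted. Each gene took its probe with the highest mean among those measured on all arrays, and detection used usable spots. Bright areas were blocks of 16 rows by 8 columns in which, for over 10% of the spots of unnamed probes, the array exceeded all others by at least 1 on the log2 scale; they held 0.3968% to 2.841% of the spots of an array.

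Probes with at least 3 usable spots per array were tested with array and spot position as factors, variances moderated with limma 3.58.1 in R 4.3.3, and Benjamini-Hochberg adjustment at 0.05. The test was checked on simulated data. With 1 group there was no test between groups.

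The genes, lists, roles and motifs were chosen with earlier results of these data known. Values on every array are given for the first gene of each role list, genes not detected on all arrays, the 5 with the largest SD and those whose probes differed in detection. Other genes are named beside counts and patterns, chosen after their values were seen.

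The alternatives were the less strict detection flag, detection on 3 arrays or by every probe, keeping flagged spots, averaging a gene's probes, dropping the detection filter, scaling by quantiles or by the array median, and leaving out bright areas or each replicate. Normexp with an offset of 50 was added after the data were seen and run on the median signals, since the files used here hold no mean signal; the planned form on mean signals was not run.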

Additional observations from a re-analysis of the deposited data

Results flagged for a closer look

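Of 48 levels tested, 2 had a replicate far from the others, and chance alone is expected to mark about 1 in 20. That rate does not hold for the further genes tested, Rad21 among them, which were taken for having the largest SDs. The level of Birc5 was 3.21 on replicate 3 against 2.94 to 2.98 on the other arrays, a gap of 0.835 of its range, which is past Dixon's 95% critical value. The level of Rad21 was 3.36 on replicate 3 against 1.46 to 1.64 on the others, a gap of 0.904 of its range. The spot of Rad21 on replicate 3 lay in a bright area of that array, and that of Birc5 did not.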

How the results depend on the processing

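The count of 40 genes detected on all arrays became 42 with the less strict flag (61.7% of all named genes), with 3 arrays (54.0%) or with flagged spots kept (51.3%). It was 35 when every probe had to be detected (45.2%) and 38 without bright areas (50.7%), where Espl1 and Kif23 lost their spots. Without single replicates it was 40 to 42, against 51.2% to 52.6% of all named genes. Under the less strict flag Cdk6 and Cenpf were detected on all arrays and Cdkn2a was not. The median SD was 0.436 with the array median (0.390 over all detected genes), 0.152 with normexp, and 0.153 to 0.184 without single replicates. The median distance of the set on replicate 2 was -0.129 with no detection filter; on replicate 3 it changed sign within a range of -0.022 to 0.029. Between 4 and 6 of the 6 repeated probes passed the spot test under the alternatives, while 891 (quantile normalization) to 1270 (array median) of all 1350 probes passed. By more than their SD, 14 of 43 levels moved with the mean of all probes, 34 with normexp and all 43 with the array median. No paired analysis was possible because only 1 group was analysed. Probes near background limit what can be said of Cdk6, Cdkn2a and Cenpf.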
